A study of Arabidopsis thaliana with 8 samples.

Results

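Ribosomal protein genes are described here across 5 comparisons of *Arabidopsis thaliana* seedlings. A gene was taken when its short description in any of the authors' deposited tables held the words "ribosomal protein", which gave 144 genes of the 7948 listed in at least 1 table. The lines were the *nf-yc triple* mutant (insertion alleles *nf-yc3-1*, *nf-yc4-1* and *nf-yc9-1*, the last of which still gives a weak transcript), *hy5* (an insertion in the gene of the bZIP transcription factor HY5), *nf-yc triple hy5*, which carries all of these, and their parental ecotype Col-0. Whole seedlings were sampled at day 7 in continuous white light (cWL) on B5 medium, with 2 poly-A RNA libraries per genotype. Each table lists the genes at an adjusted p under 0.05 in the authors' edgeR comparison, with its log2 fold change (first line named over the second) and its mean log2 CPM, the log2 of library-scaled counts, in the pair. No value per library was analysed here, so neither library depth nor replicate spread is known, and the test of each gene is the authors' adjusted p.

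A ribosome is built of ribosomal RNA and many proteins, in a large subunit that joins amino acids and a small subunit that reads the message. Plant cells hold several kinds: cytosolic ribosomes, whose proteins are encoded in the nucleus by small families of near-copies, and plastid and mitochondrial ribosomes of bacterial type, whose proteins come partly from the nucleus and partly from the organelle genome. Transcripts of cytosolic ribosomal proteins are abundant and tend to rise together in dividing and growing tissue, and plastid ribosomes make the core proteins of the photosystems.

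The members were sorted by hand from their short and long descriptions, their annotated location and the known identity of each gene, since a family name such as "Ribosomal protein L6 family" covers both plastid and cytosolic genes. On this sorting, 51 members belong to the cytosolic large subunit, 38 to the cytosolic small subunit and 4 to the acidic stalk, the lateral arm of the large subunit that recruits elongation factors. Another 25 are nuclear genes of plastid ribosomal proteins, 6 are genes of the plastid genome, 2 are mitochondrial, 6 are of bacterial type with no place given, and 12 carry the words without being subunits. These 12 include *LOS1*, which encodes the elongation factor eEF2, and AT1G68660, a ClpS-like protein. Location notes bear out this sorting only in part. They name neither the cytosolic ribosome nor the plastid for 13 cytosolic large-subunit and 7 small-subunit members. For 1 large-subunit member they name the plastid, and for 1 nuclear plastid and 1 mitochondrial member the cytosolic ribosome. The sorting is also unsure for AT5G15750, counted in the cytosolic small subunit, whose short description names only an RNA-binding motif and the S4 family. Of the 144 members, 98 stand in 1 table, 34 in 2 and 12 in 3, and 0 stand in 4 or 5. A gene entered the set only by being listed, so the share of members listed is not a rate of change. In the reference annotation 344 nuclear genes carry the words, 137 of them members, or 39.8%, beside 28.4% of all 27444 nuclear protein-coding genes that any table lists.

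The kind of ribosome with most listed members differed between comparisons. Nuclear genes of plastid ribosomal proteins were lower in *nf-yc triple* than in Col-0, with 21 of 25 members listed. Cytosolic genes were higher in *nf-yc triple hy5* than in *nf-yc triple*, with 81 of 93 members listed, and higher in *hy5* than in Col-0, with 28 of 93. Among all genes tested, 7.96% were listed lower in the first of these comparisons, and 11.8% and 13.5% were listed higher in the other two. The 25 and the 93 hold only genes that some table lists, so shares over annotated genes are the ones to read: 35.1% of genes placed in the plastid were lower in *nf-yc triple*, and 39.0% and 16.9% of genes placed in the cytosolic ribosome were higher in the other two. Over all nuclear protein-coding genes the same shares were 5.51%, 8.14% and 9.32%. That base includes genes that were not tested, so these shares lie below those of all genes tested. The annotated groups follow words in location notes and match the hand-sorted classes only in part. Those words place 15 of the 25 nuclear plastid members in the plastid. The changes were small: the median size of the members' log2 fold change was 0.27 in *nf-yc triple hy5* over *nf-yc triple*, beside 0.55 for all genes listed there, and 0.28 in *nf-yc triple* over Col-0, beside 0.49. Only 3 of the 97 members listed in *nf-yc triple hy5* over *nf-yc triple* and 2 of the 27 listed in *nf-yc triple* over Col-0 reached 1.5-fold. In these comparisons the less listed kind went the same way. All 4 cytosolic members listed in *nf-yc triple* over Col-0 were lower, and all 4 plastid members listed in *nf-yc triple hy5* over *nf-yc triple* were higher. In *hy5* over Col-0 the 28 cytosolic members were higher, while 8 of 10 plastid members were lower.

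**Figure D1:**
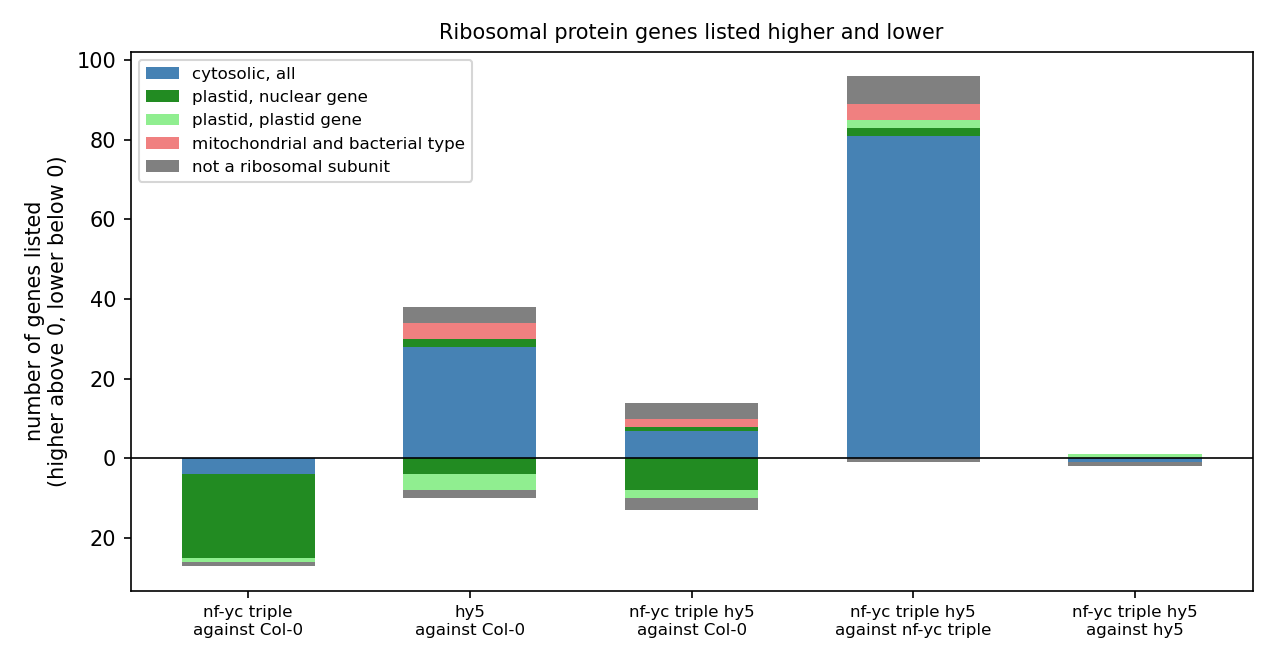
Bars give the number of ribosomal protein genes listed at an adjusted p under 0.05 in each comparison, higher in the first genotype above 0 and lower below 0, coloured by class. The tallest bar, *nf-yc triple hy5* over *nf-yc triple*, holds 96 higher genes, 81 of them cytosolic, and the lower bar of *nf-yc triple* over Col-0 holds 27 genes, 21 of them nuclear genes of plastid proteins.

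The mutated genes set the frame for these values. In *nf-yc triple* over Col-0 the log2 fold change was -4.08 for *NF-YC3*, -0.97 for *NF-YC4* and -2.29 for *NF-YC9*, while *HY5* stands in no table, so its transcript level checks no label. All 19 light-harvesting antenna genes were listed lower in *nf-yc triple hy5* than in Col-0, as they were in *hy5*, and 12 of them in *nf-yc triple*. Of 10 root marker genes, 6 were higher over Col-0 in *nf-yc triple*, 5 in *hy5* and 4 with all 4 genes mutated, with 0 lower. In *nf-yc triple hy5* over *nf-yc triple* the table lists 3 of them lower and 0 higher. *LRX1*, a root hair cell wall protein, had log2 fold changes of 1.08 in *nf-yc triple* over Col-0 and -0.93 in *nf-yc triple hy5* over *nf-yc triple*, and *AGP3*, a root arabinogalactan protein, 1.26 and -0.85. Their part in the ribosomal protein values was not tested. In whole seedlings fewer cells of a type and less RNA per cell cannot be told apart.

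The first comparison asks what *nf-yc triple* seedlings express differently from Col-0 while HY5 is present. All 27 members listed were lower in *nf-yc triple*, and 0 were higher. Across all genes tested, 7.96% were listed lower and 7.23% higher, and of the other listed genes with folds under 1.5, 42.5% were higher. By the words of the annotation's location notes, 13 of 37 ribosomal protein genes placed in the chloroplast or plastid were listed lower (35.1%), against 4 of 154 placed in the cytosolic ribosome and 5.51% of all nuclear protein-coding genes.

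The 21 nuclear genes of plastid proteins had log2 fold changes between -0.34 and -0.19, with a median of -0.24, or 0.845 times the Col-0 level. They are abundant transcripts, with mean log2 CPM values between 6.74 and 9.10. Proteins of both subunits were among them. *PSRP3/1*, a plastid-specific protein of the small subunit, had the smallest adjusted p (5.52e-05) and a log2 fold change of -0.34. *EMB3136*, which encodes the stalk-base protein L10, followed at -0.32 (adjusted p = 0.00012), and *RPL12-A*, one of the L12 proteins that form the bacterial-type stalk, at -0.31 (adjusted p = 0.00023). Another stalk gene, *RPL12-C*, stood at -0.28. The other plastid-specific proteins listed, *PSRP5* and *PSRP6*, had values of -0.23 and -0.28. *RPL21C*, whose protein L21 belongs to the large subunit, was at -0.25 (adjusted p = 0.0035). These 2 stalk genes share sequence: 9.08% of all 150-base stretches of *RPL12-A* transcripts and 13.3% of those of *RPL12-C* occur in the other gene, so part of their reads could be assigned to either.

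**Figure D2:**
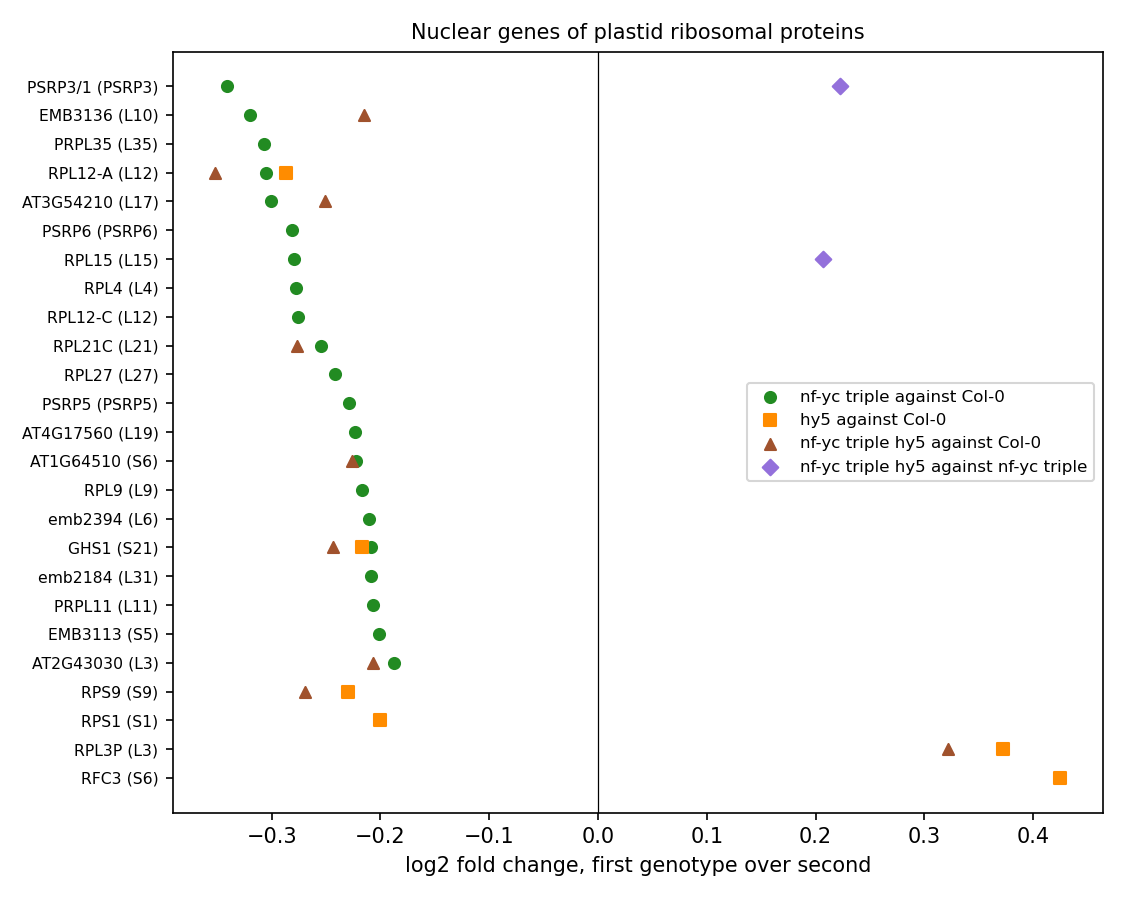
Each row is a nuclear gene of a plastid ribosomal protein, with the protein in parentheses, and each symbol is its log2 fold change in a comparison that lists it. The green circles of *nf-yc triple* over Col-0 all lie left of 0, between -0.34 and -0.19, and *RPL3P* and *RFC3* lie right of 0 in *hy5* over Col-0.

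The other 6 members listed in *nf-yc triple* were of mixed kind. The plastid gene ATCG00330, which encodes S14 of the small subunit, had the lowest value, -0.77 (adjusted p = 0.013), at a mean log2 CPM of 2.56. AT2G40010, a gene of P0, the base of the cytosolic stalk, had -0.71 at a mean log2 CPM of 2.18 (adjusted p = 0.025). These low-level genes were the pair past 1.5-fold. AT5G59850, a gene of S15a in the small subunit, had -0.33, AT3G16080, a gene of L37 in the large subunit, -0.32, and AT3G53890, a gene of S21 in the small subunit, -0.31. AT1G68660, the ClpS-like gene, which is named for an adaptor of the Clp protease and not for a ribosomal subunit, had -0.30.

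Promoters of the plastid genes with the smallest adjusted p in this comparison, among those whose 250 upstream bases overlap no other gene, are shown to set beside the cytosolic ones further on. They were read from the TAIR10.1 assembly, 5′ to 3′ on the strand of the gene and ending at the base before its annotated start. Capitals mark the motifs searched on both strands: the telobox AAACCCTA and the site II elements TGGGCC and TGGGCT, which are known from promoters of ribosomal protein genes, CCAAT, the sequence that NF-Y complexes bind, and the G-box CACGTG, which HY5 binds.

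*PSRP3/1* (PSRP3, chr1:25758412-25758661, minus strand): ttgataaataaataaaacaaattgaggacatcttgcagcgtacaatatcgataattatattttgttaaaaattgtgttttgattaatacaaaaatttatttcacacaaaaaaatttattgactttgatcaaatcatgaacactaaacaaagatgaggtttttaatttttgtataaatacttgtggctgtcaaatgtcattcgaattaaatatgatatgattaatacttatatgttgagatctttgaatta

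*PRPL35* (L35, chr2:10241625-10241874, plus strand): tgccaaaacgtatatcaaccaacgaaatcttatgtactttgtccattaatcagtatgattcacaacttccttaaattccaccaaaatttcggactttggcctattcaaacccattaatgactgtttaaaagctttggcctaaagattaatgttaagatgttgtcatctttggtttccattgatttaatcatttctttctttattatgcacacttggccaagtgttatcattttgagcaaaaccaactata

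AT3G54210 (L17, chr3:20068615-20068864, minus strand): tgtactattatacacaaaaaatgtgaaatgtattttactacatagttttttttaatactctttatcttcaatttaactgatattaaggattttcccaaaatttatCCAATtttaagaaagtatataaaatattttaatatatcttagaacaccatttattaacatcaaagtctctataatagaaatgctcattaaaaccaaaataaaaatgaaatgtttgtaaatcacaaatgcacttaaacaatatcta

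The windows of *PSRP3/1* and *PRPL35* (protein L35) hold none of the 5 motifs, and that of AT3G54210 (protein L17) holds 1, a CCAAT between 145 and 141 bases upstream. In *nf-yc triple* over Col-0 their log2 fold changes were -0.34, -0.31 and -0.30. Among the 21 plastid genes listed lower, 57.1% of promoters hold CCAAT, beside 46.0% of all 27443 nuclear promoters, 46.6% of those of all genes listed lower there and 57.0% of those of the 207 annotated ribosomal protein genes that stand in no table. The G-box was found in 4.76% of them, beside 6.49% of all promoters, 10.5% of those of all genes listed lower and 4.35% of those of the 207. The 207 mix genes of all kinds of ribosome, so they are not a plastid set to compare with. A match is only a run of letters in this window.

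The comparison of *hy5* with Col-0 asks what the loss of HY5 changes while the NF-YCs are present. Here 38 members were listed higher and 10 lower, while 13.5% of all genes tested were listed higher and 12.0% lower. All 28 cytosolic genes listed were higher, with log2 fold changes between 0.20 and 0.55 and a median of 0.27, or 1.20-fold. Of the 154 annotated genes placed in the cytosolic ribosome, 16.9% were listed higher and 0 lower, beside 9.32% of all nuclear protein-coding genes listed higher and 8.25% lower.

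In the large subunit AT1G15250, a gene of L37, had the highest value of any member, 0.55 (adjusted p = 0.0029), at a mean log2 CPM of 3.46. AT2G25210, a gene of L39, a very small protein near the exit tunnel, followed at 0.46 (adjusted p = 0.002). In the small subunit *PFL*, an S18 gene named for the pointed first leaves of its mutant, had 0.33 (adjusted p = 0.0019) and AT2G40510, a gene of S26, 0.31 (adjusted p = 0.0059). The mitochondrial gene *MRPL11* was higher by 0.44 (adjusted p = 0.00021), and 3 genes of bacterial type with no place given, AT2G42710 (L1), *NFD1* (L21) and AT5G46160 (L14), lay between 0.35 and 0.37. *NFD1* is known for a role in the fusion of nuclei in the embryo sac.

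Plastid proteins went both ways in *hy5*. Of the nuclear genes, *RPL12-A* was lower at -0.29 (adjusted p = 0.00098) and *RPS9*, *GHS1* and *RPS1* lay between -0.23 and -0.20. *GHS1* encodes S21 and was named for glucose hypersensitivity. *RFC3*, an S6-type gene known for its effect on fatty acid composition, was higher at 0.42 with the smallest adjusted p of any member in this comparison (6.09e-05), and *RPL3P*, described as a plastid L3, was higher at 0.37. Of the 6 plastid-encoded members, 4 were lower: ATCG01120 (S15) at -1.28, ATCG00840 (L23) at -0.92, ATCG01020 (L32) at -0.87 and ATCG00830 (L2) at -0.79. They were the only 4 of the 48 members past 1.5-fold, and their mean log2 CPM values lay between 1.31 and 3.73. The L2 and L23 genes lie in the inverted repeat of the plastid genome, where each has an identical copy, so their reads cannot be assigned to a copy. Plastid transcripts mostly lack long poly-A tails and the libraries were made from RNA selected for poly-A, so these low levels do not measure how much of the transcript a plastid holds.

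Genes for proteins of the same name could differ in direction. With L21, *NFD1*, of bacterial type with no place given, was higher than in Col-0 both in *hy5*, at 0.36, and in *nf-yc triple hy5*, at 0.36. The plastid gene *RPL21C* was lower in *nf-yc triple hy5* over Col-0 at -0.28, and the pair need not belong to the same ribosome. Among L3 genes sorted as plastid, *RPL3P*, which is called plastid in its description, was higher in *nf-yc triple hy5* than in Col-0 at 0.32. AT2G43030 was lower there at -0.21. Among plastid S6 genes, *RFC3* was higher in *hy5* at 0.42, and AT1G64510 was lower in *nf-yc triple* at -0.22 and in *nf-yc triple hy5* at -0.23 against Col-0. No comparison lists both of these S6 genes, so they are not shown to differ in direction. The L3 genes with opposite directions were also of different level: *RPL3P* had a mean log2 CPM of 5.08 and AT2G43030 of 8.32 in *nf-yc triple hy5* over Col-0.

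**Figure D3:**
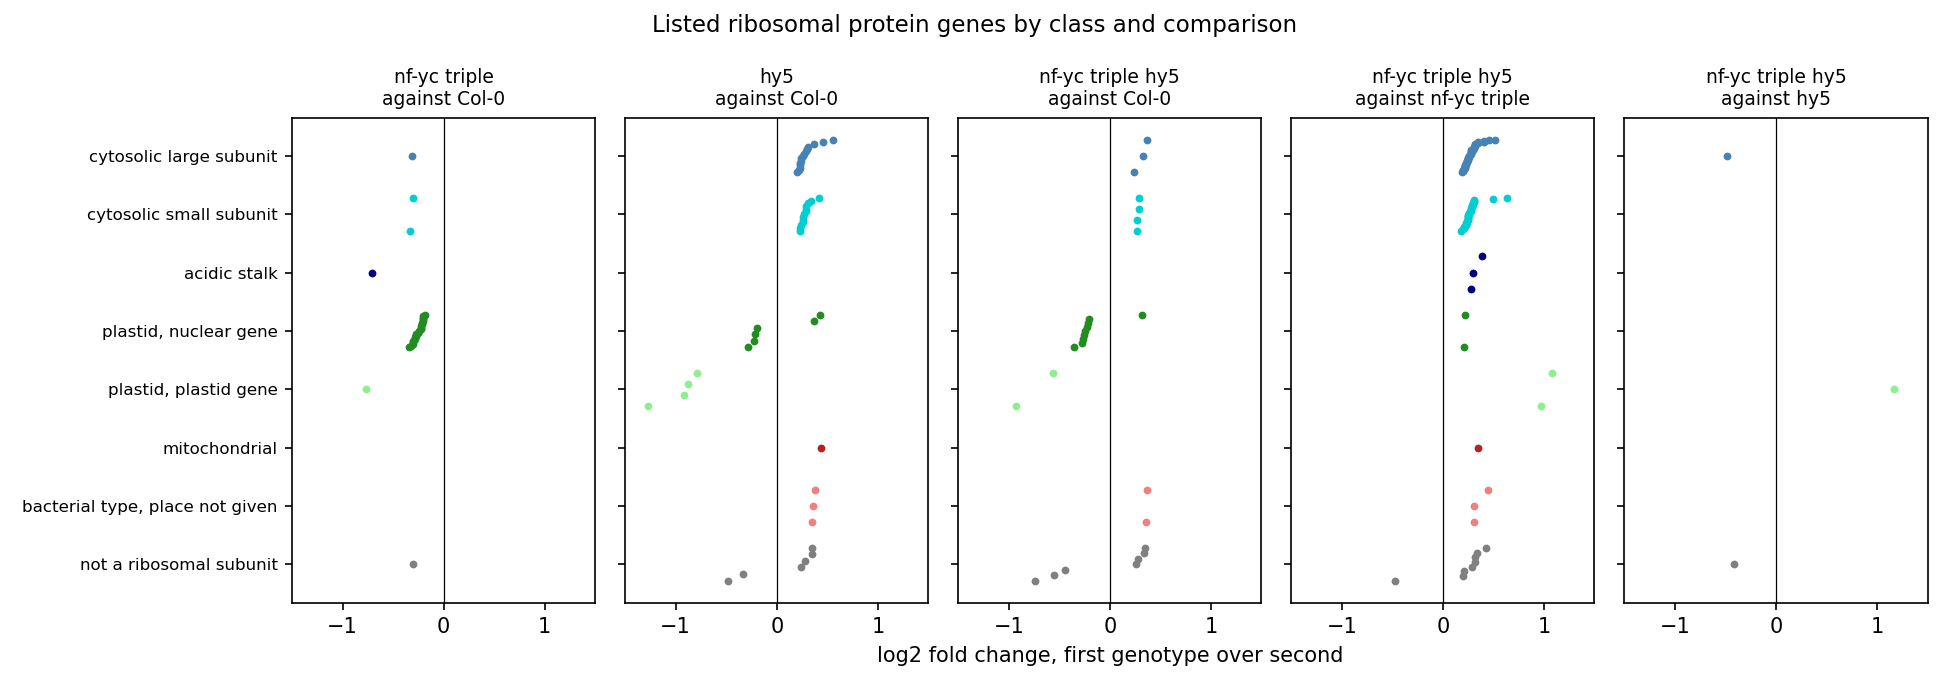
Each dot is a listed ribosomal protein gene, placed by its log2 fold change (first genotype over second) and class, in a panel per comparison; dots are spread within a row only to be seen. Cytosolic genes lie right of 0 in the panels of *hy5* over Col-0 and of *nf-yc triple hy5* over Col-0 and over *nf-yc triple*, between 0.18 and 0.64, nuclear plastid genes lie left of 0 in the panel of *nf-yc triple*, and plastid-encoded genes have the widest range, from -1.28 to 1.17.

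With all 4 genes mutated, *nf-yc triple hy5* over Col-0 listed 14 members higher and 13 lower. The shares of all genes tested were 13.5% higher and 13.6% lower. All 7 cytosolic genes listed were higher, with log2 fold changes between 0.24 and 0.37, and 8 of 9 nuclear plastid genes were lower, between -0.35 and -0.21. Over annotated genes these shares were below or near the background: 3.25% of genes placed in the cytosolic ribosome were listed higher, beside 9.27% of all nuclear protein-coding genes, and 10.8% of those placed in the plastid were listed lower, beside 9.31%. AT2G33370, a gene of L23 in the large subunit, had the highest cytosolic value, 0.37 (adjusted p = 0.021), and AT3G02080, a gene of S19 in the small subunit, the smallest adjusted p of the small subunit (0.0092) at 0.29. *RPL12-A* was lowest of the nuclear plastid genes at -0.35 (adjusted p = 0.00017). Of the members that are not subunits, AT1G68660 (ClpS-like) was at -0.55 (adjusted p = 9.42e-08) and AT3G12915, an eEF2-like gene, at -0.74 (adjusted p = 0.00023). AT5G24490, whose protein resembles bacterial factors that put ribosomes into hibernation, was higher by 0.35 (adjusted p = 0.0002).

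Comparisons with Col-0 share its libraries, so their values stand side by side without a test of their likeness. For *RPL12-A* the log2 fold change was -0.31 in *nf-yc triple*, -0.29 in *hy5* and, with all 4 genes mutated, -0.35. In the same order of lines *GHS1* was at -0.21, -0.22 and -0.24, and AT1G68660 at -0.30, -0.34 and -0.55. Neither *RPL12-A* nor *GHS1* is listed in *nf-yc triple hy5* against either parental line, so the quadruple mutant was not called different from *nf-yc triple* or from *hy5* in them, and the tables give no interval for those differences.

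The largest set of changes came from *nf-yc triple hy5* over *nf-yc triple*, which asks what the loss of HY5 changes where the 3 NF-YCs are already lost. Of 97 members listed, 96 were higher and 1, AT3G12915, was lower at -0.48. Among all genes tested 11.8% were listed higher and 10.6% lower. Of the listed genes that are not members and had folds under 1.5 at a mean log2 CPM of at least 5, 694 of 1420 were higher (48.9%); of the members in the same range, 83 of 83 were higher, and they made up 5.52% of all listed genes in that range. Of 344 annotated nuclear ribosomal protein genes, 27.3% were listed higher and 0.291% lower, beside 8.14% and 7.30% of all nuclear protein-coding genes, and of those placed in the cytosolic ribosome 60 of 154, or 39.0%, were higher and 0 lower. These values are relative to *nf-yc triple*, whose libraries also gave the 27 members listed lower over Col-0. In *nf-yc triple hy5* over Col-0, 3.25% of genes placed in the cytosolic ribosome were listed higher, beside 9.27% of all nuclear protein-coding genes.

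The 81 cytosolic genes comprised 46 of the large subunit, 32 of the small subunit and 3 of the stalk. Their log2 fold changes lay between 0.18 and 0.64, with a median of 0.26 (1.20-fold) and quartiles of 0.23 and 0.30. Mean log2 CPM values lay between 3.08 and 9.07. Genes past the threshold alone have a value, so smaller changes are missing and the spread of this family cannot be read from the listed genes. The medians of the subunits were close, 0.26 for the large and 0.25 for the small one. Most of them are members through this comparison alone (60 of the 81), so their number follows in part from the rule and the share over annotated genes above is the measure to read.

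*ATL5*, a gene of L5, the protein that carries 5S ribosomal RNA into the large subunit, had the smallest adjusted p of the cytosolic genes (0.00011) and a log2 fold change of 0.31. *RPL5B*, also a gene of L5, was at 0.25 (adjusted p = 0.0049). Both S6 members, for the small-subunit protein that S6 kinase phosphorylates downstream of the TOR kinase, were higher: *RPS6* at 0.21 and *EMB3010* at 0.22. *RPL23AA*, a gene of the tunnel-exit protein L23a, was at 0.22, AT3G09630, a gene of L4, at 0.20, and *PFL*, for S18, at 0.28. The 3 largest cytosolic values belonged to low-level genes, *rps15ae* (S15a) at 0.64 with a mean log2 CPM of 3.08, AT3G56020 (L41) at 0.52 with 3.69 and AT5G15520 (S19) at 0.50 with 3.47. Of the 16 genes of ribosomal proteins chosen for their known mutants or roles, 7 were members, and each was among the 96 listed higher here. All of these except *PFL* are members through this comparison alone, so their common direction is no separate result. The other 9 include AT5G02870, a second gene of L4, and *RPL23AB*, the paralogue of *RPL23AA*, both in no table.

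A gene can be a ribosomal protein gene without the words. AT1G66580 (*SAG24*) encodes an L10 protein but is described as a senescence-associated gene, so it is no member. It was higher at 0.42 (adjusted p = 1.68e-06) in *nf-yc triple hy5* over *nf-yc triple* and at 0.28 (adjusted p = 0.016) in *hy5* over Col-0.

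Several proteins are represented by more than 1 listed gene. Copies in no table are not members, so a family is described only as far as it is listed, and how often copies move together cannot be read from the members. The 3 members each for L7, L9, L23, S15a and S30 were higher in *nf-yc triple hy5* than in *nf-yc triple*. For L9, *PGY2* (from PIGGYBACK, named for outgrowths on leaves) had 0.34, AT1G33120 0.30 and AT4G10450 0.40. *PGY2* and AT1G33120 cannot be fully separated, since 48.8% and 48.0% of their 150-base stretches occur in the other gene. Among the 138 nuclear members, 6 share a stretch of that length with another gene, and the other 132 share none.

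Other proteins had 2 members with values close to each other. Those of S7 (AT3G02560 at 0.31 and AT5G16130 at 0.24), of S3 (AT2G31610 at 0.23 and AT5G35530 at 0.21) and of S4 (AT5G58420 at 0.24 and AT2G17360 at 0.25) were listed higher over *nf-yc triple*. In the large subunit the L10a members lay at 0.23 and 0.28 and the L17 members at 0.20 and 0.18. The stalk was represented by a P1 gene, AT4G00810, at 0.30 and 2 P3 genes, AT5G57290 at 0.28 and AT4G25890 at 0.39.

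Some copies stood in 1 HY5 comparison alone. The cytosolic L6 members, AT1G74050 and AT1G74060, were higher in *hy5* over Col-0, at 0.24 each, and neither was listed in *nf-yc triple hy5* over *nf-yc triple*. Of the S26 members, AT2G40510 was at 0.25 in *nf-yc triple hy5* over *nf-yc triple* and at 0.31 in *hy5* over Col-0, and AT2G40590 was listed in *hy5* over Col-0 only, at 0.29. A gene absent from a table has no value there, so these copies are not shown to differ between backgrounds.

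Members of the L37 family were listed in different comparisons, and no comparison listed copies in opposite directions. AT3G16080 was at -0.32 in *nf-yc triple* over Col-0 and at 0.41 (adjusted p = 0.00021) in *nf-yc triple hy5* over *nf-yc triple*, which use the same *nf-yc triple* libraries. AT1G52300 was listed only in *nf-yc triple hy5* over *nf-yc triple*, at 0.26. AT1G15250 was listed in neither: it was at 0.55 in *hy5* over Col-0 and at -0.48 in *nf-yc triple hy5* over *hy5*, which share the *hy5* libraries. AT5G59850 of the S15a family, at -0.33 in *nf-yc triple* over Col-0, was at 0.26 in *nf-yc triple hy5* over *nf-yc triple*. The nuclear plastid genes *PSRP3/1* and *RPL15* were likewise at -0.34 and -0.28 in *nf-yc triple* over Col-0, and at 0.22 and 0.21 in *nf-yc triple hy5* over *nf-yc triple*.

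Other classes went the same way in this comparison. Both plastid-encoded genes listed were higher, ATCG00650 (S18) at 1.08 and ATCG00330 (S14) at 0.97, and with *rps15ae* they were the members past 1.5-fold. ATCG00330 had been lower, at -0.77, in *nf-yc triple* over Col-0, with the same *nf-yc triple* libraries in both tables. The mitochondrial S14 gene *RPS14* was at 0.35 and 3 genes of bacterial type with no place given lay between 0.31 and 0.45. Of the members that are not subunits 7 were higher, among them *LOS1* (eEF2, which moves the ribosome along the message) at 0.21, in contrast to -0.48 for the eEF2-like AT3G12915, and AT5G08180, related to the small nucleolar protein Nhp2, at 0.43 (adjusted p = 1.12e-05).

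Promoters of the cytosolic genes with the smallest adjusted p in *nf-yc triple hy5* over *nf-yc triple*, 2 of each subunit whose window overlaps no other gene, are shown because these genes moved together. Build, direction and capitals are as above.

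AT3G16080 (L37, chr3:5454512-5454761, plus strand): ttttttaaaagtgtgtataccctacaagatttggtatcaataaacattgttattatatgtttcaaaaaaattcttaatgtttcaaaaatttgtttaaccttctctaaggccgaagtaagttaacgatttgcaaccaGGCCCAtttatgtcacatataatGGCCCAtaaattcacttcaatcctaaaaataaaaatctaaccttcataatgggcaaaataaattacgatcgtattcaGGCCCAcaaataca

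*PGY2* (L9, chr1:12022975-12023224, plus strand): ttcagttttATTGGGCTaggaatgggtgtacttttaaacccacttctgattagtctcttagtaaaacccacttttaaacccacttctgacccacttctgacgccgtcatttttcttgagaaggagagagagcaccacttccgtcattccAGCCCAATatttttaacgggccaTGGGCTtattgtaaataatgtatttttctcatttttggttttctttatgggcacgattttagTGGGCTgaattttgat

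*RPS15* (S15, chr1:1143131-1143380, minus strand): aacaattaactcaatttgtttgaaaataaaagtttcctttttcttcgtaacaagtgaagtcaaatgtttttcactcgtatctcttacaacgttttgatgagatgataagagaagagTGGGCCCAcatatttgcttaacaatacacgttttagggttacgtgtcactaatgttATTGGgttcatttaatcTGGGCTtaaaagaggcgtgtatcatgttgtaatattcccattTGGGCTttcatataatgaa

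AT5G56670 (S30, chr5:22936085-22936334, minus strand): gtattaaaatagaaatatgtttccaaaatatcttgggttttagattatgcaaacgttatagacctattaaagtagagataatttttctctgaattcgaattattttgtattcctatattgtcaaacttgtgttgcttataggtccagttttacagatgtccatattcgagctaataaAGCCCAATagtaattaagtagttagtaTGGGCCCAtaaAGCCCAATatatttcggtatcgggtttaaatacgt

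All 4 hold a site II element. AT3G16080 has TGGGCC 3 times, each as its reverse complement, the nearest between 14 and 9 bases upstream of the start. *PGY2* has TGGGCT 4 times, and *RPS15* and AT5G56670 hold both forms. Motifs overlap here: TGGGCC runs into its own reverse complement in *RPS15* and AT5G56670, and the reverse complement of TGGGCT shares bases with CCAAT in *PGY2* and AT5G56670. In the plastid windows shown above there was no site II element.

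Over all 81 cytosolic genes listed higher, 66.7% of promoters hold TGGGCC, 46.9% TGGGCT and 18.5% the telobox. In all nuclear promoters these shares are 13.7%, 12.3% and 4.49%, and in those of all genes listed higher in the same comparison 14.5%, 11.1% and 3.76%. The 207 annotated ribosomal protein genes that stand in no table also hold them often, at 41.5%, 36.2% and 16.4%, so high shares are not limited to the listed members. The 207 mix genes of all kinds of ribosome while the 81 are cytosolic only, so a gap between their shares cannot be read as listed against unlisted. CCAAT was found in 54.3% of the 81 promoters and the G-box in 2.47%, beside 46.0% and 6.49% of all promoters and 57.0% and 4.35% of those of the 207. Of the 28 cytosolic genes listed higher in *hy5* over Col-0, 0 hold the G-box, 42.9% hold TGGGCC and 53.6% hold CCAAT.

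**Figure D4:**
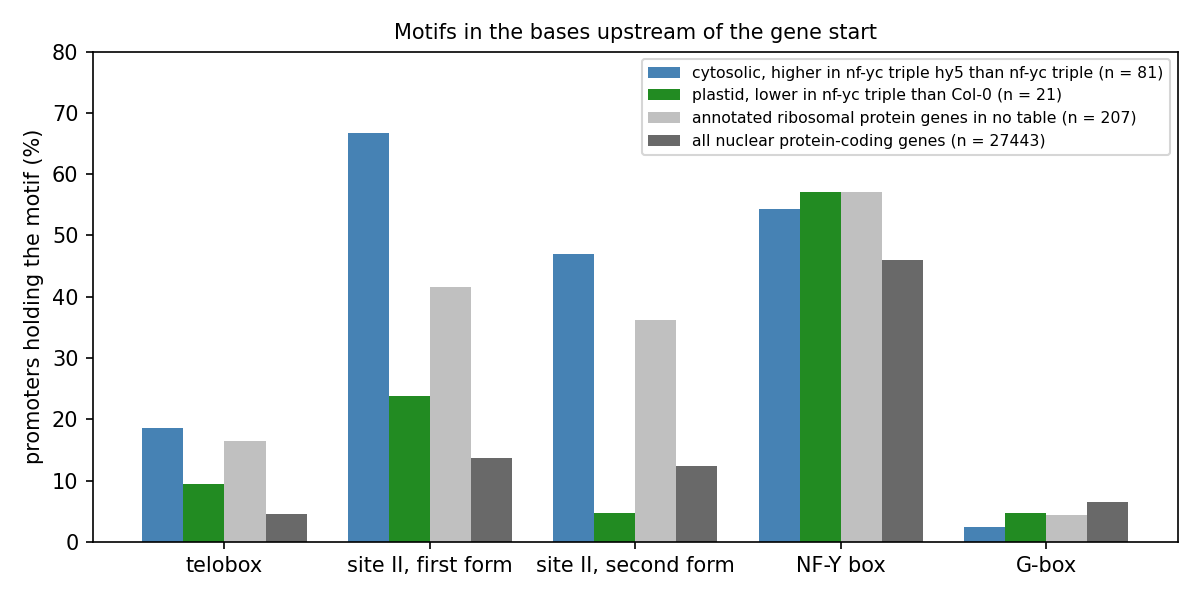
Bars give the percentage of promoters, the 250 bases upstream of the annotated gene start, that hold each motif on either strand: the telobox AAACCCTA, the site II forms TGGGCC (first) and TGGGCT (second), the NF-Y box CCAAT and the G-box CACGTG. Site II is found in 66.7% (first form) of promoters of the 81 cytosolic genes, in 23.8% of those of the 21 plastid genes and in 13.7% of all promoters.

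Loss of HY5 can be compared in 2 backgrounds with no library in common, *nf-yc triple hy5* over *nf-yc triple* and *hy5* over Col-0. There were 21 members listed in both, 21.6% of the 97 and 43.8% of the 48, and all 21 were higher in both. Of all genes, 2725 were listed in both, and 98.0% of these had the same direction, so a shared direction is the rule among genes listed in both. These 2725 make up 63.2% of the 4311 genes listed in *nf-yc triple hy5* over *nf-yc triple* and 55.7% of the 4888 in *hy5* over Col-0, larger shares than those of the members. The 21 members, 18 of them cytosolic subunits, had a median log2 fold change of 0.28 without the 3 NF-YCs and of 0.27 with them. Their median difference between the backgrounds, without minus with, was 0.01. Across the 2725 genes listed in both it was -0.01, so a small median difference is not particular to the members. Members not listed in both comparisons have no such difference, so these medians cannot show how alike the effect was across the family. AT2G25210 (L39) had 0.46 in *nf-yc triple hy5* over *nf-yc triple* and 0.46 in *hy5* over Col-0. AT5G60670 (L12) had 0.32 and 0.31, and AT2G33370 (L23) 0.35 and 0.30. Of the 21 members, AT5G08180 (Nhp2) was farthest apart, at 0.43 and 0.28. More cytosolic genes were listed in the *nf-yc triple* background, 81 against 28 in the Col-0 background, but an interaction of the 2 mutations was not tested, since the tables hold no value for genes that were not listed.

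**Figure D5:**
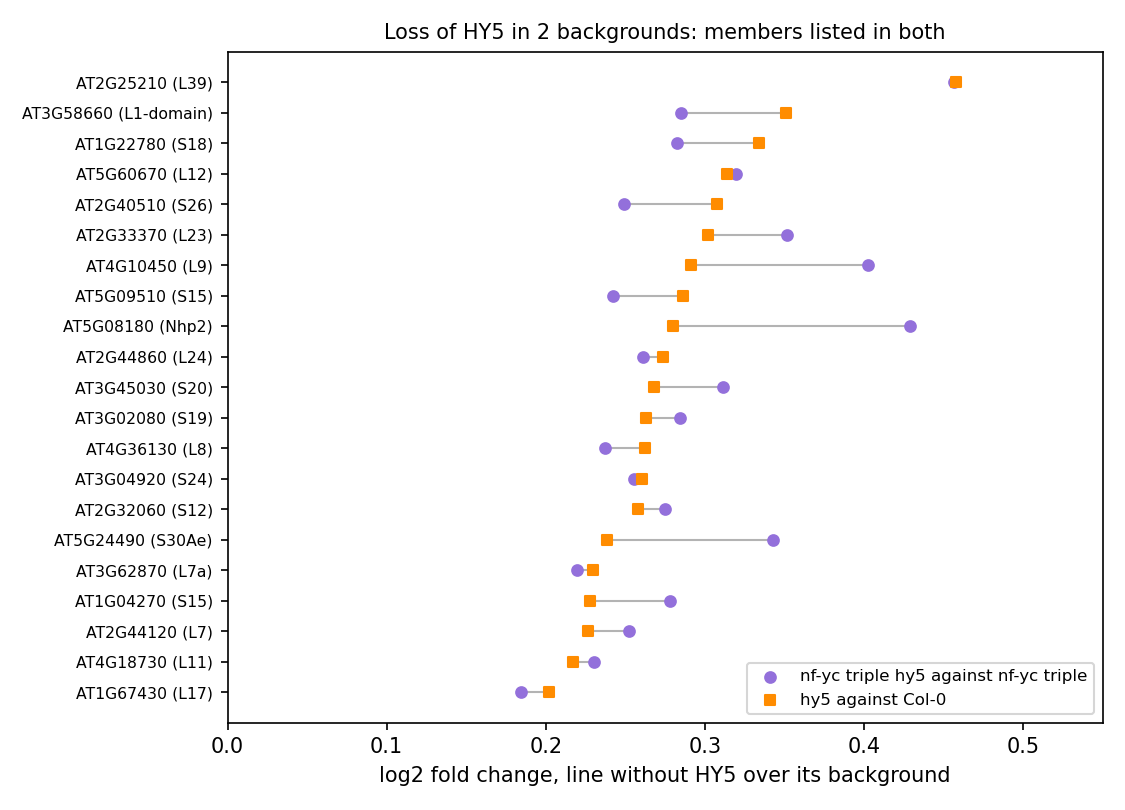
Each row is a member listed in both comparisons, with its protein in parentheses. Circles give the values (log2 fold change) in *nf-yc triple hy5* over *nf-yc triple*, squares those in *hy5* over Col-0, and a line joins them; all 21 pairs lie right of 0, between 0.18 and 0.46.

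Loss of the NF-YCs can be compared in the same manner, in *nf-yc triple hy5* over *hy5* and in *nf-yc triple* over Col-0. Where HY5 was absent, 1 member was listed higher and 2 lower, beside 1.75% and 3.01% of all genes tested. The higher one was the plastid gene ATCG01120 (S15) at 1.17, and the lower ones were AT1G15250 (L37) at -0.48 and AT1G53560, an L18ae-like gene that is not a subunit, at -0.42. Between the 3 members here and the 27 in *nf-yc triple* over Col-0, 0 were shared, while of all genes 523 were, 56.8% of the 920 and 18.0% of the 2913. ATCG01120 and AT1G15250 are listed in *hy5* over Col-0 as well, with the opposite sign, -1.28 and 0.55, and those tables share the *hy5* libraries.

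Other genes of protein synthesis give a setting for these values. Of 28 ribosome biogenesis genes, which process ribosomal RNA and assemble subunits, 14 (50.0%) were higher and 0 lower in *nf-yc triple hy5* over *nf-yc triple*, with a median log2 fold change of 0.32, and likewise 14 higher and 0 lower in *hy5* over Col-0, with a median of 0.35. Shares of all genes tested that were listed higher there were 11.8% and 13.5%. These 28 genes were chosen by identifier with earlier results of these data known. In *nf-yc triple* over Col-0 0 of them were listed. *NUC-L1*, a nucleolin of ribosomal RNA transcription and processing, had 0.51 (adjusted p = 4.11e-11) in *nf-yc triple hy5* over *nf-yc triple*, 0.63 in *hy5* over Col-0 and 0.45 in *nf-yc triple hy5* over Col-0. *FIB2*, a fibrillarin that methylates ribosomal RNA, had 0.54 and 0.34 in *nf-yc triple hy5* over *nf-yc triple* and in *hy5* over Col-0.

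Translation factors were more mixed and nearer the shares of all genes tested. Of 69 initiation factor genes, 8 (11.6%) were higher and 3 (4.35%) lower in *nf-yc triple hy5* over *nf-yc triple*, beside 11.8% and 10.6% of all genes tested, and 2 were higher and 2 lower in *hy5* over Col-0. Of 49 elongation factor genes, 7 of which are also members, 10 (20.4%) were higher and 4 (8.16%) lower in *nf-yc triple hy5* over *nf-yc triple*, but 4 were higher and 8 (16.3%) lower in *nf-yc triple hy5* over Col-0, beside 13.5% and 13.6% of all genes tested. Of 64 tRNA ligase genes, which load amino acids onto tRNA, the table of *nf-yc triple* over Col-0 lists 6 (9.38%) lower and 1 higher, beside 7.96% of all genes tested that were lower. In the TOR pathway list of 6 genes, the kinases of S6 went opposite ways: *S6K2* had 0.74 in *nf-yc triple hy5* over *nf-yc triple* and 1.04 in *hy5* over Col-0, and *PK1* (also known as S6K1) -0.49 and -0.72. Of the growth lists, 8 of 52 histone genes (15.4%) were higher and 2 lower in *nf-yc triple hy5* over *nf-yc triple*, and of 67 cyclin genes 2 were higher and 7 (10.4%) lower.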

How the data were processed

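Whole-seedling RNA-Seq of 4 genotypes, 2 libraries each at day 7, was analysed from the authors' deposited tables. The authors demultiplexed 150 bp reads with CASAVA 1.8.2, aligned them by the Burrows-Wheeler Aligner against representative TAIR10 gene models and tested genotype pairs in edgeR (version, filters and use of molecular indices not given in the sources used here). The log2 fold change and mean log2 CPM, the p-value and the Benjamini-Hochberg adjusted p-value are edgeR output as deposited by the authors. The signed fold change, a score made by the authors, gave directions only in an alternative, since 779 of its values in *nf-yc triple* over Col-0 go against the log2 column. The rule that defines these genes needs the authors' fold changes, so the tests are theirs. Depth per library is unknown. The series text calls the 2 libraries biological replicates without naming separate sowings, so p-values cover only the spread of these libraries, which could be technical.

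Members, lists and the rule for named genes were chosen with earlier results of these data known, and classes were assigned by hand after values had been seen, from the short and long descriptions, the annotated location and the known identity of each gene. The rule took members in all tables, the 4 highest and 4 lowest per comparison, the 2 smallest adjusted p per class against Col-0, members or families with opposite directions, and 16 genes of known role; AT1G66580 and the other genes outside it were named after their values were seen. How many genes were tested was worked out from each gene's p, its rank and its adjusted p, a step tested on simulated data, with Python 3.11.15, pandas 2.3.3, numpy 2.4.6 and matplotlib 3.10.9. Promoters of 250 bases and transcripts came from RefSeq TAIR10.1, a later release than the authors' gene models; 138 of 144 members were found there, the other 6 being plastid genes. No set test was run, and lists are described by counts.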

Additional observations from a re-analysis of the deposited data

How the results depend on the processing

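A threshold of at least 1.5-fold left few members. In *nf-yc triple* over Col-0 it left 2 lower; in *hy5* over Col-0, 0 higher and 4 lower; in *nf-yc triple hy5* over Col-0, 0 higher and 2 lower; in *nf-yc triple hy5* over *nf-yc triple*, 3 higher and 0 lower; in *nf-yc triple hy5* over *hy5*, 0 lower. It left 0 members higher after loss of HY5 in both backgrounds. An adjusted p under 0.01 left 14 lower in *nf-yc triple* over Col-0, 12 higher and 3 lower in *hy5* over Col-0, 2 higher and 5 lower in *nf-yc triple hy5* over Col-0, 34 higher and 0 lower in *nf-yc triple hy5* over *nf-yc triple*, 0 higher and 0 lower in *nf-yc triple hy5* over *hy5*, and 3 higher after loss of HY5 in both backgrounds. With cytosolic, plastid and mitochondrial subunits only, 8 were higher in *nf-yc triple hy5* over Col-0, 0 lower over *nf-yc triple* and 1 lower over *hy5*. At a mean log2 CPM of at least 5, 5 were lower in *hy5* over Col-0, 0 lower in *nf-yc triple hy5* over *nf-yc triple*, and 0 higher and 0 lower over *hy5*. Each lower count follows from fewer genes entering.

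The other counts stayed within 1.5 times, among them 86 higher (subunits only) and 83 higher (level filter) in *nf-yc triple hy5* over *nf-yc triple*. The sign of the signed fold change column gave the same count in 10 of 10 results, and all 73 named values lay within 0.01 of it. No paired analysis was possible because the tables hold no value per library, which also bars leaving out a replicate. Genes below the tables' threshold have no value, so a gene that is not listed is not shown to be unchanged.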
